A study of Drosophila melanogaster with 31 samples.

Results

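The transcripts of host genes, as distinct from transposons, were compared between ovaries of modulo (mod) transheterozygotes, mod07570/L8, and their heterozygous control, mod07570/+. The members are all genes represented by RefSeq transcripts in the count tables of these libraries, with the transcripts of a gene summed and the transposon consensus sequences left aside. There are 16758 of them among 16884 genes and transposons. Of these host genes, 8221 reached 1 cpm (counts-per-million, the counts of a gene scaled to the library total) in at least 3 of the 6 libraries and were tested.

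Modulo is a nucleolar RNA-binding protein with RNA recognition motifs, regarded as the Drosophila relative of nucleolin, and its loss suppresses position effect variegation, the patchy silencing of genes placed next to heterochromatin. The Drosophila ovary is made of egg chambers, in which a germline cyst of nurse cells and 1 oocyte is enclosed by somatic follicle cells. Nurse cells become polyploid and load the oocyte with RNA and ribosomes, whereas follicle cells secrete yolk proteins and, late in oogenesis, the vitelline membrane and the chorion of the eggshell.

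The series holds 31 samples, of which 3 mod07570/L8 and 3 mod07570/+ ovary libraries enter the comparison. In the mutant, the 2 copies of mod differ. The mod07570 copy stems from a P-element insertion and keeps part of its function, whereas the modL8 chromosome lacks a stretch near the end of arm 3R and provides none. Homozygotes of either allele do not survive and are not part of the series. All flies carry at least 1 mutant allele of mod, the controls included, and the deletion chromosome is absent from the mod07570/+ flies. For that reason 3 modL8/+ ovary libraries are given beside the others as another heterozygote. Total RNA was prepared from whole ovaries with TRIzol, and poly(A) RNA libraries were made from it with an Illumina kit. The methods give 3 biological replicates per genotype but no age of the females. Replicate ovary libraries were very alike: the coefficient of variation common to all features was 0.024 in the fit of ovaries and 0.20 in that of heads of the same genotypes. The p-values therefore measure the spread between these libraries, which may be partly technical.

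The 9 ovary libraries held 12988959 to 18353131 estimated counts. The mod07570/L8 libraries matched their label for the targeted gene, with mod at 12.3, 10.3 and 11.4 cpm. It was at 335, 342 and 324 cpm in mod07570/+ and 449, 458 and 462 cpm in modL8/+. The mod level does not check the labels of the heterozygotes, and it was higher in modL8/+, which carries the deletion. The labelled tissue was borne out by germline transcripts such as oskar (osk), the determinant of the posterior pole of the oocyte, at 1805, 1794 and 1774 cpm in mod07570/+ and 1636, 1642 and 1691 cpm in mod07570/L8. These levels were lower in each mutant library, yet the scaled difference of osk was -0.02 ± 0.021 on the log2 scale (SE) and was not called (adjusted p = 0.368). The scaling by trimmed means (TMM) adds close to 0.09 to a log2 ratio of cpm in this comparison. Fold changes below are the scaled values, and levels are cpm without that scaling.

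At an adjusted p under 0.05 in edgeR's quasi-likelihood test, 3131 host genes (38.1% of those tested) were higher and 3237 (39.4%) lower in mod07570/L8 than in mod07570/+ ovaries. Together they make up 77.5% of the genes tested, and for 79.4% the 3 mutant values did not overlap the 3 control values. Most differences were small: 4278 of the called genes, 67.2%, changed by less than 1.5-fold. Changes of over 2-fold were found in 14.5% of the genes, 934 higher (11.4%) and 255 lower (3.1%). A further step up in size left 320 genes over 4-fold and 98 over 8-fold higher, and 155 over 4-fold and 127 over 8-fold lower. The 934 genes together took 1.84% of all counts in mod07570/+ and 7.08% in mod07570/L8, and the 255 genes took 0.623% and 0.195%.

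Some of these genes could only have differed. Of the tested genes, 196 were under 1 cpm in all control libraries and passed the minimum through the mutant, and 190 of them are among the 934. Another 155 were under 1 cpm in all mutant libraries, and 147 of them are among the 255. The remaining 7870 genes, which reached 1 cpm in both groups, include 852 changes of over 2-fold. CG44153, CG5937, Drs, upd3, shd, Apoltp, topi, Uro, Hsp70Ba and Hsp70Bbb, all in groups described below, passed through the mutant alone, and the 31 digestive fallers through mod07570/+ alone. tobi, Bace, CG7953, CG8997, mag, Npc2e, PGRP-SC1a and RpS10a, also described below, passed through mod07570/+ alone as well. A gene list is described below by its members in the tables, those tested, those called, and its median log2 fold change. The median over all 8221 genes was -0.01, and the lists were chosen with earlier results of these data known, so their counts are descriptions. List counts are to be set beside the 38.1% higher and 39.4% lower of all tested genes, and beside 11.4% and 3.1% for changes over 2-fold. The near-even shares belong to the TMM fit. Under scaling by total counts 2590 genes were higher and 3927 lower.

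**Figure D1:**
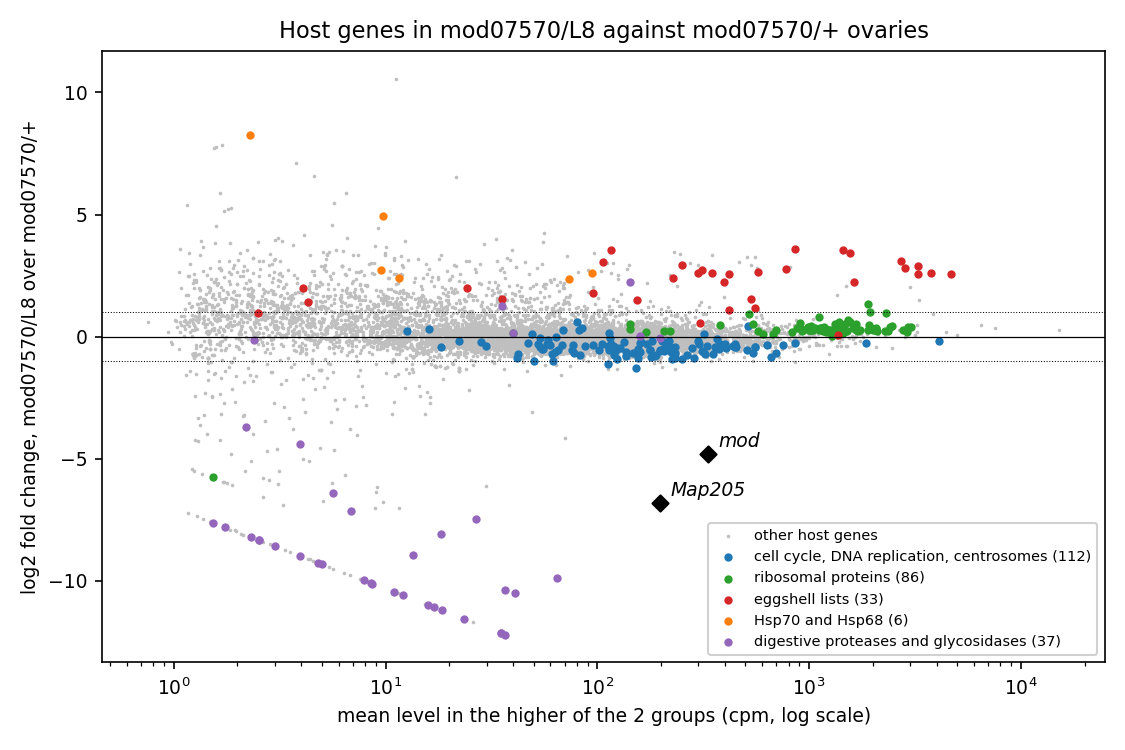
Change of each tested host gene against its level. The horizontal axis is the mean cpm in the higher of mod07570/L8 and mod07570/+ ovaries (3 libraries each) on a log scale, and the vertical axis is the log2 fold change, with dotted lines at 2-fold. Most eggshell genes lie above the upper line, ribosomal proteins just above 0, cell cycle and DNA replication genes below 0, and the digestive enzymes at the bottom with mod and Map205.

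The 8 genes with the largest rises in mean cpm were all eggshell or yolk genes. All 9 chorion protein genes, whose products form the outer eggshell, were called higher by over 2-fold, with a median log2 fold change of 2.94. Their summed level was 2371 to 2403 cpm in mod07570/+, 5510 to 5716 cpm in modL8/+ and 15990 to 16060 cpm in mod07570/L8. All 9 genes of the vitelline membrane list were higher by over 2-fold as well, with a median of 2.61. Their sums were 2325 to 2348, 4379 to 4548 and 12590 to 13180 cpm in the same order. The list was made for the inner layer of the eggshell, but it also holds dec, needed to assemble the endochorion.

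Cp36, a major chorion protein of the early chorion, was at 661, 645 and 647 cpm in mod07570/+, 1296, 1255 and 1250 cpm in modL8/+ and 3694, 3783 and 3786 cpm in mod07570/L8 (log2 fold change 2.62 ± 0.022 (SE), adjusted p = 6.44e-33). The groups did not overlap, and modL8/+ lay between the other genotypes. Cp16, a chorion protein of the latest stages, was at 76.1, 74.4 and 74.2 cpm in mod07570/+, 252, 245 and 231 cpm in modL8/+ and 865, 848 and 855 cpm in mod07570/L8 (log2 fold change 3.61 ± 0.028 (SE), adjusted p = 1.44e-33). The late chorion genes Cp15 (3.10), Cp18 (3.54) and Cp19 (3.42) had log2 fold changes above those of Cp36 and Cp38 (2.56), and Cp7Fa lay between at 2.94. In the vitelline membrane list, dec (defective chorion 1) went from 482, 462 and 454 cpm in mod07570/+ to 3281, 3290 and 3269 cpm in mod07570/L8, with 866, 904 and 898 cpm in modL8/+ (log2 fold change 2.91 ± 0.024 (SE), adjusted p = 4.21e-33). The structural genes Vm26Aa, Vm34Ca, Vm32E, Vml and psd rose by 2.58, 2.82, 2.74, 2.78 and 2.61 on the log2 scale.

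The late follicle cell enzymes and regulators of the eggshell followed, with 15 of 16 listed genes tested, all 15 higher and 12 of them by over 2-fold (median 1.54). Femcoat, an eggshell protein, was at 10.4, 9.20 and 12.0 cpm in mod07570/+ and 123.3, 119.5 and 107 cpm in mod07570/L8 (log2 fold change 3.56 ± 0.070 (SE), adjusted p = 1.13e-24). The yellow family genes of the eggshell, yellow-g and yellow-g2, rose by 2.65 and 2.57, the follicle cell protein gene Fcp3C by 3.06, and ndl, the eggshell protease that starts the dorsoventral signal, by 2.40. Regulators of follicle cell fate were among them: slbo, a C/EBP factor of border cells, was at 1.77, 0.853 and 0.725 cpm in mod07570/+ and 4.59, 3.49 and 4.08 cpm in mod07570/L8, and br (broad), which sets the dorsal appendages, had a log2 fold change of 1.54.

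Yolk protein genes moved in the same direction but by less. Of the 11 genes for yolk proteins and their uptake, 10 were higher, 4 of them by over 2-fold, and 1 was lower (median 0.94, and 0.70 with unique reads). Yp1 was at 763, 781 and 767 cpm in mod07570/+, 1608, 1603 and 1601 cpm in modL8/+ and 2985, 3033 and 2945 cpm in mod07570/L8 (log2 fold change 2.05 ± 0.021 (SE), adjusted p = 4.24e-31). Yp2 (1.504) and Yp3 (0.88) followed, and yl, the yolk receptor that is made in the oocyte, went from 2152, 2110 and 2177 cpm to 3786, 3826 and 3954 cpm (log2 fold change 0.94 ± 0.022 (SE), adjusted p = 4.46e-23). The eggshell and yolk lists together accounted for 1.22 to 1.23% of all counts in the mod07570/+ libraries, 2.00 to 2.02% in modL8/+ and 4.43 to 4.52% in mod07570/L8. The heterozygotes thus did not overlap either. In bulk ovary RNA more cells of a type cannot be told apart from more RNA per cell, so more late-stage egg chambers and more of these transcripts in each chamber give the same values.

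**Figure D2:**
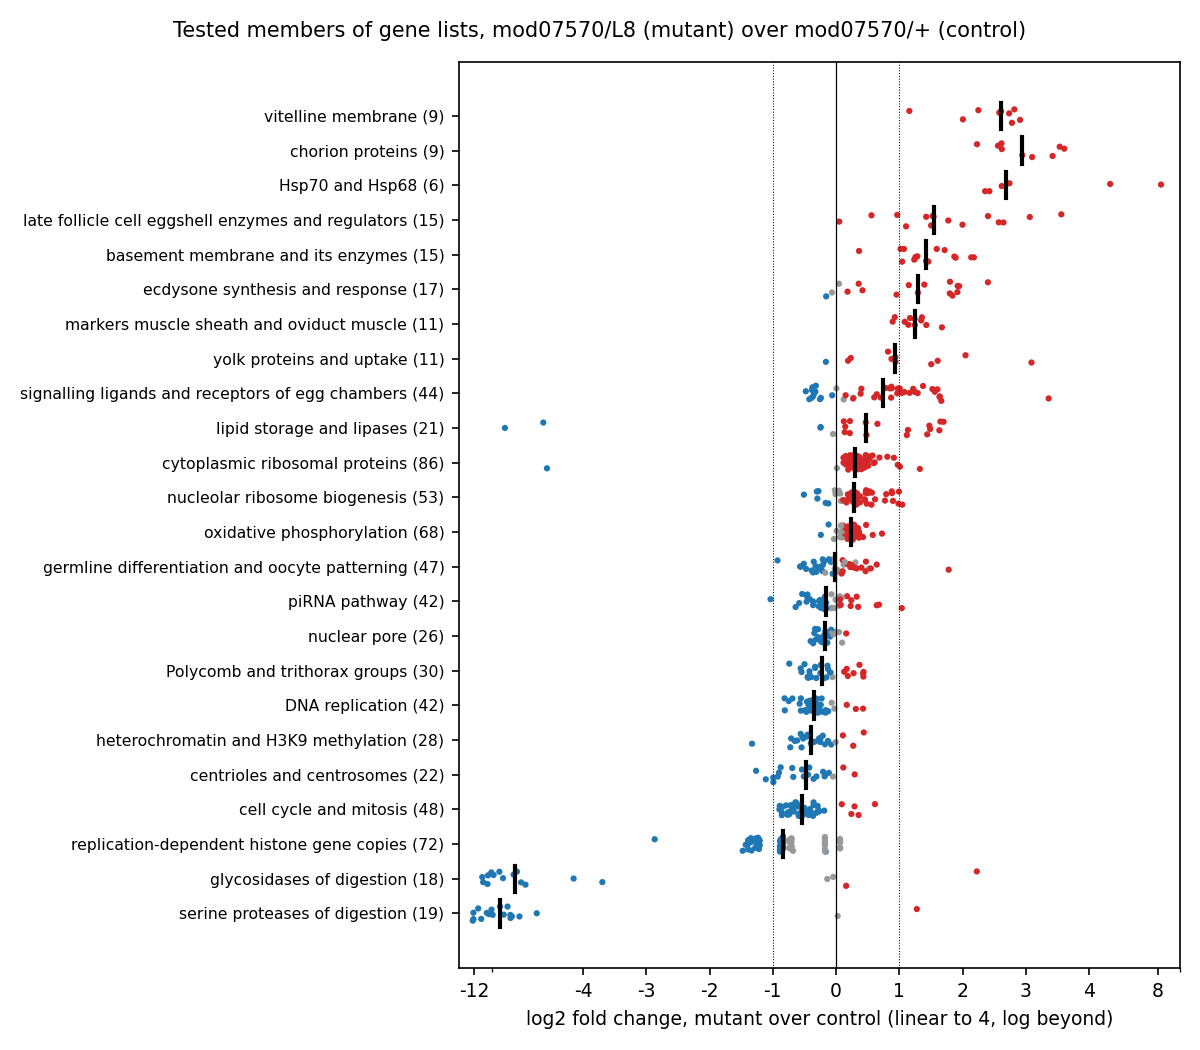
Log2 fold change of each tested member of 24 gene lists, with the number tested in parentheses. Points are genes, red called higher, blue called lower and grey not called, black bars are list medians and dotted lines mark 2-fold. The axis is linear to 4 and logarithmic beyond, and the values of digestive genes that were at 0 in the mutant depend on the count added in the fit. The eggshell lists have medians of 2.94, 2.61 and 1.54, cell cycle genes of -0.55, and ribosomal proteins of 0.30.

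Beyond the eggshell, the genes with the largest rises included several secreted or surface proteins. CG44153, which has no annotated role here, was at 0 in the 3 mod07570/+ libraries, at 1.56, 2.00 and 1.57 cpm in modL8/+ and at 9.87, 11.4 and 12.3 cpm in mod07570/L8, which is at least 56.4-fold higher against a floor of 3 counts per library. CG5937 was at 0, 0.487 and 0.181 cpm in mod07570/+ and 20.5, 20.6 and 23.1 cpm in mod07570/L8. Mucin-related genes were prominent: Mur11Da was at 3.54, 3.84 and 2.06 cpm in mod07570/+, 8.43, 8.43 and 9.13 cpm in modL8/+ and 56.0, 60.0 and 51.2 cpm in mod07570/L8 (log2 fold change 4.25 ± 0.11 (SE), adjusted p = 1.1e-21), and Mur2B (3.27) and Muc4B (2.62) also rose. In a list of 18 mucin-related genes made after their values were seen, 6 were tested, 5 were over 2-fold higher and 1 was lower. The metalloprotease gene tok (tolkin) rose by 3.91 ± 0.20, IRSp53, which shapes membranes and actin, by 3.32 ± 0.18, pwn by 3.19 ± 0.14, and the ionotropic receptor gene Ir7c by 3.31 ± 0.071 (log2, SE). CG4066, CG31661 and CG18088 rose by 3.98, 3.88 and 3.81. Among odorant-binding and chemosensory genes 13 of 247 were tested and 10 were higher, 7 by over 2-fold, with Obp19c at 21.3, 20.8 and 22.7 cpm in mod07570/+ and 141, 138 and 135 cpm in mod07570/L8. Jhbp5, named for juvenile hormone binding proteins, rose by 3.03 ± 0.052, but the call was lost when only reads unique to a transcript were used.

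Markers of follicle cells as a whole were higher, whereas markers of the germline were close to even. All 12 follicle cell markers were called higher, 11 by over 2-fold (median 1.87), with sums of 1843 to 1896 cpm in mod07570/+, 3542 to 3687 cpm in modL8/+ and 8325 to 8741 cpm in mod07570/L8. This was not limited to eggshell genes: tj (traffic jam), a factor of somatic gonad cells, was at 41.03, 43.9 and 37.6 cpm in mod07570/+, 54.2, 56.2 and 56.6 cpm in modL8/+ and 129, 126 and 131 cpm in mod07570/L8 (log2 fold change 1.75 ± 0.046 (SE), adjusted p = 1.06e-21). The patterning genes mirr and eya rose by 1.64 and 1.498, and the adhesion protein gene Fas3 by 1.42. The sums of the follicle cell list were mostly Vm26Aa, Vm26Ab and Yp1, already counted with the eggshell and yolk genes. Their means were 579.6, 363.2 and 770.5 cpm in mod07570/+ and 3251, 1622 and 2988 cpm in mod07570/L8. Of the 9 germline markers 4 were higher, 2 lower and 3 not called, with a median of 0.05 and sums of 8820 to 8968 cpm in mod07570/+ and 8231 to 8326 cpm in mod07570/L8. That median turned negative, to -0.04, under scaling by total counts and to -0.06 with unique reads.

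Receptors and ligands that work in the follicle epithelium were higher in many cases. Of 51 signalling genes, 44 were tested, 29 were higher, 15 of these by over 2-fold, and 12 were lower, none by over 2-fold (median 0.74). Egfr, the receptor that reads the Gurken signal of the oocyte, was at 17.6, 18.9 and 18.2 cpm in mod07570/+, 19.5, 24.8 and 24.6 cpm in modL8/+ and 53.7, 49.4 and 53.4 cpm in mod07570/L8 (log2 fold change 1.601 ± 0.063 (SE), adjusted p = 6.04e-18). Its feedback inhibitor kek1 rose by 1.37 ± 0.10 and the receptor Pvr, which guides border cells, by 1.56 ± 0.075 (log2, SE). In the BMP pathway the ligand dpp (1.64), the receptor wit (1.52) and the inhibitor Dad (1.66) were all called higher, and Dad was at 19.1, 20.1 and 18.4 cpm in modL8/+ against 8.08, 8.89 and 9.61 cpm in mod07570/+. The cytokine upd3 stayed rare at 1.36, 1.31 and 1.30 cpm in mod07570/L8, with 0, 0.122 and 0.242 cpm in mod07570/+. Among genes of adhesion and polarity, the integrin gene if (inflated) rose by 2.44 ± 0.13, its partner mew by 1.17 ± 0.070 and the polarity gene baz by 2.17 ± 0.21 (log2, SE).

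Genes of the basement membrane, the sheet of matrix around each egg chamber, rose together. In this list, made after its values were seen, all 15 tested of 16 genes were higher and 14 by over 2-fold (median 1.42), with sums of 590 to 610.4 cpm in mod07570/+, 608.4 to 625 cpm in modL8/+ and 1289 to 1306 cpm in mod07570/L8. trol, which encodes perlecan, was at 127, 119 and 121 cpm in mod07570/+, 156, 147 and 148 cpm in modL8/+ and 312, 304 and 308 cpm in mod07570/L8 (log2 fold change 1.42 ± 0.030 (SE), adjusted p = 4.03e-24). The laminin gene LanA rose by 1.46 ± 0.035, the collagen prolyl hydroxylase PH4alphaEFB by 2.14 ± 0.060, and the matrix metalloproteases Mmp1 and Mmp2 by 2.18 ± 0.21 and 1.72 ± 0.071 (log2, SE). Here modL8/+ stayed near mod07570/+, unlike for the eggshell.

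Markers of tissues that surround or adhere to the ovary moved at the same time, and their part in the results above was not tested. All 11 tested of 14 muscle markers were higher and 9 by over 2-fold (median 1.24), with sums of 159.3 to 160.9 cpm in mod07570/+, 120.4 to 130 cpm in modL8/+ and 332.3 to 340.1 cpm in mod07570/L8. Mhc, the muscle myosin heavy chain, was at 30.6, 32.6 and 31.6 cpm in mod07570/+, 23.7, 19.0 and 19.6 cpm in modL8/+ and 64.3, 64.0 and 72.1 cpm in mod07570/L8, and sls (titin) rose by 1.67 ± 0.13 (log2, SE). Of 12 fat body markers 5 were tested, 4 were higher and 1 lower, with sums of 181.9 to 190.9 cpm in mod07570/+, 221 to 229.9 cpm in modL8/+ and 442.9 to 460.1 cpm in mod07570/L8, most of it FASN1. The other fat body markers, the larval serum protein genes among them, were under the minimum level. Of 12 haemocyte markers 4 were tested, 3 were higher and 1 lower, with sums of 417.1 to 428.9 cpm in mod07570/+ and 518.2 to 524.7 cpm in mod07570/L8, and the GATA factor srp and the peroxidasin gene Pxn rose by 2.04 ± 0.049 and 1.89 ± 0.18. Single markers of other tissues also rose: topi, a gene of male germ cells, was at 0.462, 0.670 and 0.665 cpm in mod07570/+ and 5.33, 5.88 and 4.56 cpm in mod07570/L8, and Uro (urate oxidase), a Malpighian tubule gene, at 0.539, 0.487 and 0.544 and 5.90, 4.85 and 5.56 cpm. Of 17 testis markers topi was the only one tested. Of 12 markers of Malpighian tubule and trachea 7 were tested, with 4 higher, 1 lower and 2 not called (median 0.34). Their sums overlapped, at 162 to 176.1 cpm in mod07570/+ and 172 to 179 cpm in mod07570/L8.

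**Figure D3:**
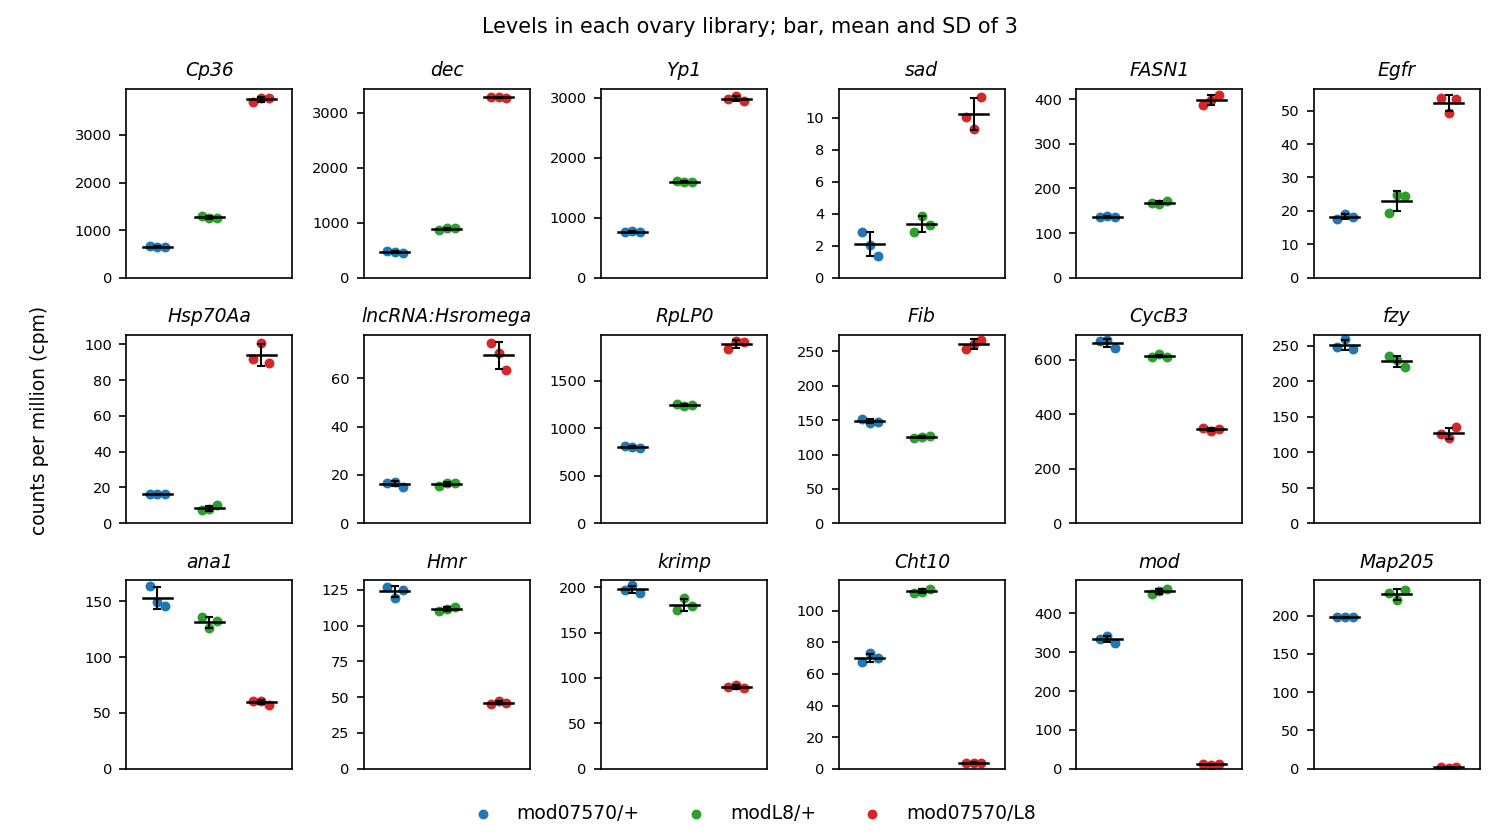
Levels of 18 genes in each ovary library, in cpm on linear axes that start at 0, with the mean and SD of 3 libraries of mod07570/+ (blue), modL8/+ (green) and mod07570/L8 (red). In the eggshell genes Cp36 and dec and in Yp1 the modL8/+ libraries lie between the other genotypes, while for Hsp70Aa, Fib, CycB3, Cht10 and mod they lie near or beyond mod07570/+.

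Genes of ecdysone, the steroid hormone that ovarian follicle cells make and that controls progress of egg chambers, were mostly higher. Of 18 listed genes 17 were tested, with 14 higher, 10 of these by over 2-fold, 1 lower and 2 not called (median 1.29). That median was 0.87 with unique reads and 1.145 without mod07570/L8 replicate 3. sad, a P450 enzyme of the late steps of ecdysone synthesis, was at 2.85, 2.07 and 1.39 cpm in mod07570/+, 2.85, 3.88 and 3.33 cpm in modL8/+ and 10.0, 9.32 and 11.3 cpm in mod07570/L8 (log2 fold change 2.40 ± 0.19 (SE), adjusted p = 8.89e-12). The synthesis genes spo, sro and nvd rose by 1.92, 1.92 and 1.80, and shd, which makes the active hormone, by 1.84, all from levels under 5 cpm. The early response genes Hr3 and Eip74EF rose from 5.54, 6.39 and 5.63 cpm and 6.31, 7.49 and 5.56 cpm to 21.2, 21.5 and 21.0 cpm and 22.8, 20.9 and 19.5 cpm.

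Lipid genes gained as well. Of 33 genes of lipid storage and lipolysis 21 were tested, 16 were higher, 8 by over 2-fold, and 4 were lower (median 0.47). FASN1, the fatty acid synthase, was at 136, 138 and 136 cpm in mod07570/+, 166, 166 and 173 cpm in modL8/+ and 386, 397 and 409 cpm in mod07570/L8 (log2 fold change 1.63 ± 0.029 (SE), adjusted p = 8.87e-26). ACC, which supplies its substrate, rose by 1.12 ± 0.034, mdy (midway), which makes triglycerides in nurse cells, by 1.49 ± 0.068, and the lipid droplet gene Lsd-1 by 1.65 ± 0.12 (log2, SE). The lipoprotein genes apolpp and Apoltp, usually made in fat body, rose by 1.61 and 3.09. Among the falling members mag (a gut lipase) and Npc2e belong with the digestive genes described below.

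The inducible Hsp70 genes were higher in every mutant library, but the other heat shock genes were not higher as a class. Of the 6 tested genes of the Hsp70 and Hsp68 list, 2, Hsp70Ba and Hsp70Bbb, were under 1 cpm in mod07570/+ and entered only through the mutant, so that they had to be higher. The other 4, Hsp70Aa, Hsp70Ab, Hsp70Bb and Hsp68, were over 2-fold higher. The summed level of the list was 33.3 to 37.7 cpm in mod07570/+, 16.6 to 20.4 cpm in modL8/+ and 197 to 203.5 cpm in mod07570/L8. The Hsp70 copies are near-identical and share reads, so the sum is firmer than any single copy. Hsp70Aa was at 16.4, 16.3 and 16.4 cpm in mod07570/+, 7.54, 7.76 and 9.93 cpm in modL8/+ and 91.7, 101 and 89.5 cpm in mod07570/L8 (log2 fold change 2.62 ± 0.060 (SE), adjusted p = 3.52e-23), and Hsp68 rose by 2.42 ± 0.16. lncRNA:Hsromega, the noncoding RNA of the major heat shock puff, rose by 2.18 ± 0.068 and stv (starvin), a co-chaperone, by 1.497 ± 0.12 (log2, SE), and both calls were lost with unique reads.

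Of the 7 small heat shock genes tested, 3 were higher and 3 lower. The abundant developmental ones fell: Hsp27 went from 1243, 1232 and 1239 cpm in mod07570/+ to 729.5, 700 and 693 cpm in mod07570/L8 (log2 fold change -0.72 ± 0.022 (SE), adjusted p = 2.93e-20), and Hsp26 had a log2 fold change of -0.37. Hsp23 rose by 1.54 ± 0.14 from a low level, and it was higher still in modL8/+, at 23.2, 24.7 and 25.8 cpm. Hsf, the heat shock transcription factor, fell from 287, 298 and 283 cpm to 180.2, 171 and 171 cpm (log2 fold change -0.64 ± 0.029 (SE), adjusted p = 1.06e-16), while the constitutive chaperone gene Hsc70-4 rose by 0.46 and Hsp83, which encodes Hsp90, by 0.17, the latter not called with unique reads. In the list of Hsf, Hsp90, Hsp60 and co-chaperones 8 genes were higher and 7 lower of 17, with a median of 0.03 that was negative under scaling by total counts (-0.06) and with unique reads (-0.06).

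Other stress and death genes gave a mixed picture. Xrp1, a transcription factor induced in cells with ribosome or DNA damage, was at 53.8, 48.6 and 49.7 cpm in mod07570/+, 54.5, 56.6 and 50.4 cpm in modL8/+ and 117, 113 and 112 cpm in mod07570/L8 (log2 fold change 1.27 ± 0.043 (SE), adjusted p = 2.31e-19). The TNF ligand egr (eiger) and the apoptosis inducer hid rose by 1.59 ± 0.14 and 0.93 ± 0.069 (log2, SE), yet of 33 tested genes of DNA damage and apoptosis 12 were higher and 13 lower, and their median of 0.05 became -0.05 under scaling by total counts. As shares, these 12 and 13 of 33 are near the 38.1% higher and 39.4% lower of all tested genes. MtnA, a metallothionein, rose by 1.88 ± 0.13. Of 35 antimicrobial peptide genes 4 were tested and were over 2-fold higher, Drs (drosomycin) through the mutant alone, at 0, 0.244 and 0.121 cpm in mod07570/+ and 5.90, 6.32 and 4.91 cpm in mod07570/L8. Genes of the Imd and Toll pathways were not raised as a group, with 10 higher and 14 lower of 27. The share higher is near the 38.1% of all tested genes. Of 39 tested cytochromes P450, 23 were higher, 11 by over 2-fold, and 9 lower, with Cyp6d5 at -2.56 ± 0.22 (log2 fold change, SE).

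Transcripts for translation and ribosome production, a process in which nucleolin takes part in vertebrates, were higher by small amounts. Of the 86 cytoplasmic ribosomal protein genes tested, 84 were higher, 1 lower and 1 not called, and only 2 of the 84 passed 2-fold (median 0.30). Their sum was 93400 to 95560 cpm in mod07570/+, 99830 to 102300 cpm in modL8/+ and 113100 to 114000 cpm in mod07570/L8, so it did not overlap between genotypes. RpLP0, a protein of the ribosomal stalk, was at 815, 802 and 793 cpm in mod07570/+, 1256, 1236 and 1244 cpm in modL8/+ and 1838, 1920 and 1905 cpm in mod07570/L8 (log2 fold change 1.32 ± 0.023 (SE), adjusted p = 7.06e-26), a call that unique reads did not give. sta, which encodes a small subunit protein, rose by 1.01, RpS2 by 0.98, RpS5a by 0.91 and RpL10Ab by 0.81. The exception was RpS10a, the rare second copy of RpS10, at 2.00, 1.46 and 1.15 cpm in mod07570/+, 0.136, 0 and 0 cpm in modL8/+ and 0.0567, 0 and 0 cpm in mod07570/L8.

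Of 53 tested genes of nucleolar ribosome biogenesis, 41 were higher, 6 lower and 6 not called, with a median of 0.28 and sums of 8196 to 8353 cpm in mod07570/+, 8368 to 8563 cpm in modL8/+ and 9359 to 9505 cpm in mod07570/L8. Fib (fibrillarin), the methylase of box C/D particles, was at 152, 146 and 148 cpm in mod07570/+, 124, 126 and 126 cpm in modL8/+ and 253, 261 and 267 cpm in mod07570/L8 (log2 fold change 0.90 ± 0.030 (SE), adjusted p = 1.85e-19). It was lower in modL8/+ than in mod07570/+, opposite to the mutant. nclb (no child left behind), a chromatin protein of ribosomal DNA transcription, rose by 0.99 ± 0.054, and Nop10 by 0.88 ± 0.12 (log2, SE). Among RNA polymerase subunits 15 of 30 were higher and 8 lower, with a median of 0.15 that became 0.060 under scaling by total counts. The 7 tested genes of polymerase I, which transcribes ribosomal DNA, a subset picked after its values were seen, were called higher, from Polr1E (0.17), Polr1F (0.33), Polr1H (0.33) and Polr1C (0.51) to Polr1A (0.56), Polr1B (0.77) and Polr1D (1.05), and Polr1E (0.074) and Polr1H (0.24) were not called under scaling by total counts. Polr1H also lost its call without mod07570/+ replicate 1 (0.26) or 2 (0.29) or mod07570/L8 replicate 3 (0.27). The small nucleolar RNA host transcript Uhg1 rose by 0.93 and Uhg2 by 1.05, the latter not called with unique reads.

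Many mitochondrial genes were higher by small amounts that depended on the processing. Of 68 tested genes of oxidative phosphorylation 56 were higher and 2 lower, none by over 2-fold (median 0.23), and ND-39 of complex I was at 134, 126 and 128 cpm in mod07570/+, 164, 159 and 152 cpm in modL8/+ and 183, 178 and 184 cpm in mod07570/L8. That median was 0.060 with unique reads and 0.14 under scaling by total counts. Mitochondrial ribosomal proteins had 35 higher, 2 lower and 39 not called of 76, not far from the 38.1% of all tested genes that were higher, and their median of 0.13 was 0.065 and 0.040 under these alternatives.

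Genes of the cell cycle fell in most cases, none by over 2-fold. All 48 genes of the cell cycle and mitosis list were called, 43 lower and 5 higher (median -0.55), and their sum was 16130 to 16310 cpm in mod07570/+, 15510 to 15540 cpm in modL8/+ and 11470 to 11560 cpm in mod07570/L8. fzy, the Cdc20 activator of the anaphase-promoting complex, was at 249, 259 and 246 cpm in mod07570/+, 236, 229 and 220.2 cpm in modL8/+ and 126, 119.5 and 135 cpm in mod07570/L8 (log2 fold change -0.90 ± 0.036 (SE), adjusted p = 7.62e-18). CycB3, a mitotic cyclin, was at 666, 671 and 643 cpm in mod07570/+, 611, 619 and 609.6 cpm in modL8/+ and 350.4, 339.5 and 344 cpm in mod07570/L8 (log2 fold change -0.85 ± 0.024 (SE), adjusted p = 6.21e-21). Falls of like size were seen for tum, a regulator of cytokinesis (-0.89), thr, a partner of separase (-0.86), and sub, a kinesin of the meiotic spindle (-0.86). CycB, which the nurse cells deposit in the oocyte in bulk, changed by only -0.19 ± 0.019 (log2, SE), a call lost with unique reads.

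Of 42 tested DNA replication genes 37 were lower and 3 higher (median -0.34), with sums of 9305 to 9424 cpm in mod07570/+, 8743 to 8899 cpm in modL8/+ and 7020 to 7078 cpm in mod07570/L8. Cdc6, which loads the replicative helicase, was at 184, 178 and 178 cpm in mod07570/+ and 91.4, 98.9 and 97.8 cpm in mod07570/L8 (log2 fold change -0.81 ± 0.035 (SE), adjusted p = 4.58e-17). The origin recognition subunit Orc1 had a log2 fold change of -0.69, the polymerase alpha subunit PolA2 of -0.81, and the chromatin assembly factor Caf1-105 of -0.75.

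Centrosome genes, in a list made after their values were seen, were lower in 19 of 22 cases and higher in 2 (median -0.48, and -0.72 with unique reads). ana1, a centriole protein, was at 164, 149 and 145 cpm in mod07570/+, 135, 126 and 132 cpm in modL8/+ and 60.5, 60.6 and 57.2 cpm in mod07570/L8 (log2 fold change -1.26 ± 0.044 (SE), adjusted p = 3.27e-19). Sas-4, needed to build centrioles, was at 113, 114 and 112 cpm in mod07570/+ and 50.7, 48.0 and 48.4 cpm in mod07570/L8, and modL8/+ was low too at 69.0, 63.4 and 72.1 cpm. Poc1, gammaTub23C and ana3 had log2 fold changes of -0.99, -0.99 and -0.90, and SAK, the kinase that starts centriole duplication, had -0.69.

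Chromatin genes were also lower as groups, again by less than 2-fold in nearly all cases. Of 28 tested genes of heterochromatin and H3K9 methylation 24 were lower, 3 higher and 1 not called (median -0.40). Hmr, a protein of centromeric heterochromatin, was the only one over 2-fold, at 127, 119.7 and 125 cpm in mod07570/+, 110.2, 112 and 113 cpm in modL8/+ and 45.6, 47.3 and 45.9 cpm in mod07570/L8 (log2 fold change -1.33 ± 0.042 (SE), adjusted p = 3.8e-20). Su(var)2-HP2, a partner of HP1, had a log2 fold change of -0.72, E(var)3-9 of -0.65, the histone demethylase Kdm4A of -0.71 and the deacetylase HDAC1 of -0.56, whereas the gene of HP1a itself had -0.13, a call lost with unique reads. NSD, a methylase of H3K36, fell from 548, 546 and 539 cpm in mod07570/+ to 257, 251 and 258 cpm in mod07570/L8, with 486, 507 and 500.4 cpm in modL8/+ (log2 fold change -1.001 ± 0.024 (SE), adjusted p = 1.13e-22). Of 30 Polycomb and trithorax genes 20 were lower and 8 higher (median -0.22), with the Polycomb repressive complex genes esc (-0.74) and E(z) (-0.44) among the lower. Nuclear pore genes were lower in 20 of 26 cases and higher in 1 (median -0.17, and -0.27 under scaling by total counts), with Nup358 at -0.36 and Nup35 at -0.40.

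Of 9 tested genes of histones and variants 7 were lower, 1 higher and 1 not called. The one higher was His3.3B, a gene of the replacement histone H3.3, with a log2 fold change of 0.26, a call that unique reads did not give. The centromeric histone cid went from 60.2, 65.1 and 63.8 cpm in mod07570/+ to 40.3, 37.98 and 37.9 cpm in mod07570/L8 (log2 fold change -0.61 ± 0.051 (SE), adjusted p = 3.14e-11), and the variant His2Av had a log2 fold change of -0.51. Of 108 copies of the clustered replication-dependent histone genes, a list made after its values were seen, 72 were tested, 43 were lower, 26 of them by over 2-fold, and none was higher. The copies share most reads, and replication-dependent histone mRNAs lack a poly(A) tail, so poly(A) libraries hold few of them. Their sum was 1498 to 1583 cpm in mod07570/+, 1135 to 1236 cpm in modL8/+ and 1001 to 1065 cpm in mod07570/L8.

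Genes of the piRNA pathway, which silences transposons in the ovary, changed in both directions with more lower than higher. All 42 were tested, 10 were higher, 23 lower and 9 not called (median -0.16, and -0.25 under scaling by total counts). krimp, a Tudor protein of the nuage where piRNAs are amplified, was at 197, 202 and 194 cpm in mod07570/+, 175, 188 and 179 cpm in modL8/+ and 89.6, 92.6 and 88.8 cpm in mod07570/L8 (log2 fold change -1.04 ± 0.033 (SE), adjusted p = 4.54e-20), and was the only member over 2-fold lower. spn-E, another nuage protein, fell from 292, 283 and 286 cpm to 174, 169 and 176 cpm. In the other direction, qin rose by 0.68 ± 0.060 (log2, SE), and fs(1)Yb, which acts in the somatic cells of the ovary, was over 2-fold higher at 2.62, 3.17 and 2.78 cpm in mod07570/+ and 5.33, 5.88 and 5.38 cpm in mod07570/L8. vas, the germline helicase, was higher by 0.64 ± 0.032 (log2, SE), but with unique reads the value was -0.14 and not called, so its direction is not settled.

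Of 47 tested genes of germline differentiation and oocyte patterning 17 were higher, 21 lower and 9 not called (median -0.02). Over all tested genes 38.1% were higher and 39.4% lower. bam, the switch from stem cell to cyst, fell from 135, 137 and 131 cpm in mod07570/+ to 65.6, 69.4 and 63.9 cpm in mod07570/L8, while modL8/+ stayed at 134, 132 and 128 cpm (log2 fold change -0.93 ± 0.039 (SE), adjusted p = 2.58e-17). Its partner bgcn is rare and rose by 1.78 ± 0.33 (log2, SE). Among maternal patterning genes, bcd, the anterior determinant, had a log2 fold change of -0.57 and smg, which clears maternal RNA in the embryo, of -0.48. grk, the Gurken ligand, rose by 0.40 and orb, a translation regulator of the oocyte, by 0.47, the latter not called with unique reads.

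A separate set of genes, those of digestion in the midgut, was present in mod07570/+ and at or near 0 in mod07570/L8, with modL8/+ like the former for some genes and like the latter for others. Of 37 listed digestive proteases 19 were tested, 17 were over 2-fold lower, 1 was higher and 1 not called. Of 28 genes listed as glycosidases, by a name pattern that also took in larval serum protein genes, 18 were tested. Of these 14 were over 2-fold lower, 2 higher and 2 not called. The fitted medians were -9.26 and -7.94, and with genes at 0 set to a floor of 3 counts per library they were -5.64 and -5.27. Together these lists contribute 31 of the 255 genes that fell by over 2-fold, and each of the 31 averaged under 0.2 cpm in the mutant. All 31 reached the minimum level through mod07570/+ alone, so these counts and medians describe genes that had to be lower and give no support of their own. In modL8/+, 17 of the 31 were within 2-fold of mod07570/+ and 9 averaged under 1 cpm.

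betaTry, a trypsin, was at 37.9, 33.4 and 34.1 cpm in mod07570/+ and 38.3, 40.0 and 37.7 cpm in modL8/+, and at 0 in the 3 mod07570/L8 libraries, at least 206-fold lower. Jon99Ciii, a midgut chymotrypsin-like protease, was at 36.8, 36.3 and 37.4 cpm in mod07570/+, 34.6, 35.4 and 42.2 cpm in modL8/+ and 0 in mod07570/L8, at least 216-fold lower. For both, the modL8/+ libraries held the transcript at a level near that of mod07570/+, and no mutant library had a count. The same pattern held for Jon65Aiv, at least 138-fold lower, and Jon99Cii, from 34.9 cpm on average in mod07570/+, both at 0 in the mutant. alphaTry was represented by 1 count in the 3 mutant libraries together, against 38.7, 35.6 and 36.1 cpm in mod07570/+ (ratio 1939, exact Poisson interval 348 to 76600, covering counting error only).

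The starch enzymes behaved alike. Amy-p, an amylase that shares reads with its copy Amy-d, was at 67.4, 63.3 and 63.0 cpm in mod07570/+, 39.9, 41.5 and 40.2 cpm in modL8/+ and 0, 0.109 and 0.0592 cpm in mod07570/L8, which is 3 counts in all (ratio 1134, interval 388 to 5501). The maltases Mal-A1 and Mal-A7 were at 39.0, 42.7 and 40.4 cpm and 17.1, 17.3 and 16.6 cpm in mod07570/+, and Mal-A7 was at 0 in the mutant, at least 99.8-fold lower. tobi, a glucosidase named as a target of insulin signalling in fat body, fell from 31.0, 25.9 and 32.0 cpm in mod07570/+ to 0.624, 0.436 and 0.118 cpm in mod07570/L8, with 22.5, 22.7 and 20.0 cpm in modL8/+ (log2 fold change -6.10 ± 0.20 (SE), adjusted p = 8.27e-20). Bace, an aspartic protease, was at 24.3, 25.8 and 27.8 cpm in mod07570/+, 22.02, 23.7 and 23.1 cpm in modL8/+ and 0 in mod07570/L8. tobi and Bace were under 1 cpm in every mutant library, so they were tested through mod07570/+ alone and had to be lower.

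Other gut genes were low in both genotypes that carry modL8. LysD, a lysozyme, was at 15.3, 14.3 and 17.7 cpm in mod07570/+, 0.476, 0.333 and 0.284 cpm in modL8/+ and 0 in mod07570/L8. CG7953 was at 16.4, 15.3 and 19.0 cpm in mod07570/+, 0, 0.0555 and 0 cpm in modL8/+ and 0 in mod07570/L8, and CG8997, LManVI and Npc2e followed the same order. So did the peptidoglycan amidase gene PGRP-SC1a, at 7.49, 8.65 and 8.98 cpm in mod07570/+, 0.755, 0.461 and 1.66 cpm in modL8/+ and 0 in mod07570/L8. Jon25Biii was intermediate in modL8/+, at 5.10, 3.83 and 4.72 cpm against 16.6, 20.4 and 18.2 cpm in mod07570/+. Of 110 fallers with a mutant mean under 0.2 cpm, 41 had a modL8/+ mean within 2-fold of mod07570/+.

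The gut markers as a list had 9 tested of 12, of which 8, all tested through mod07570/+ alone, were over 2-fold lower and 1, LManII, was higher. Their sum was 260.3 to 264.5 cpm in mod07570/+ and 256.4 to 261.2 cpm in modL8/+, and the 140.8 to 147.1 cpm that remained in mod07570/L8 were nearly all LManII, at 143, 146 and 140.2 cpm. LManII was at 33.8, 31.9 and 32.5 cpm in mod07570/+ and 78.4, 83.4 and 83.9 cpm in modL8/+. betaTry, Jon25Biii and Jon65Aiv were at 0 in the 3 mutant libraries, and alphaTry, Mal-A1 and Amy-p at 1 to 3 counts in all. Whether gut tissue was collected with the ovaries of 2 genotypes and not of the third was not tested, and with ovary RNA alone it cannot be told apart from a loss of these transcripts. In heads of the same genotypes, a separate dissection, the trypsin transcripts were also at or near 0 in the mutant, whereas tobi was not called, as given below.

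**Figure D4:**
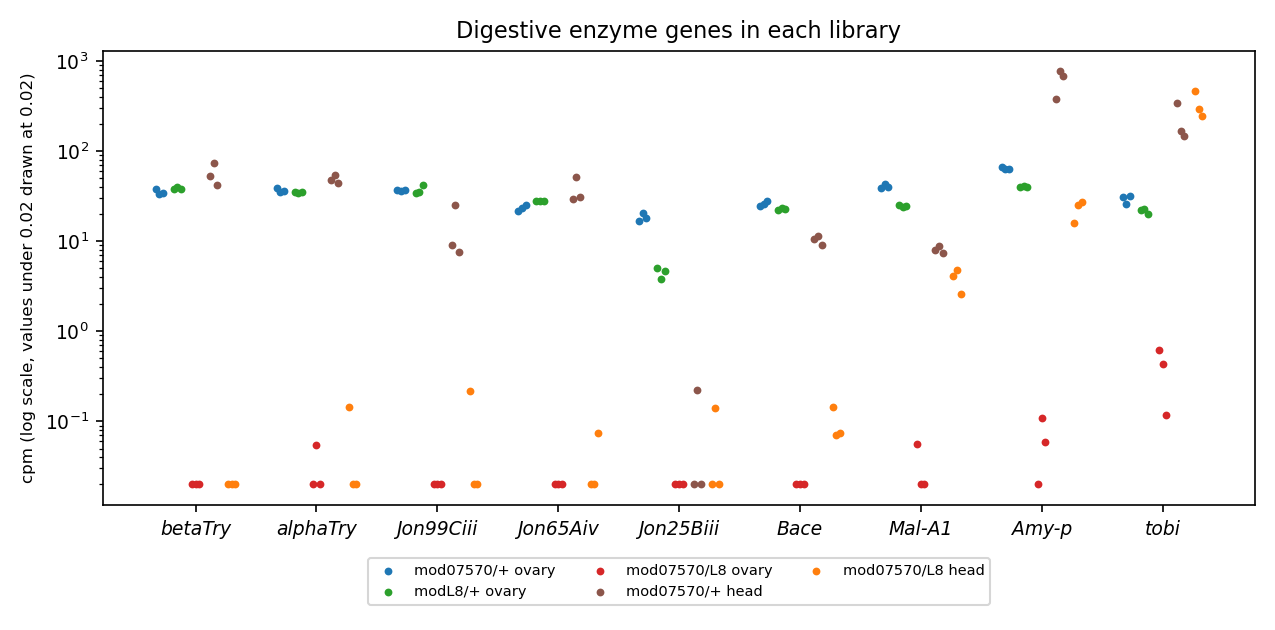
Levels of 9 digestive enzyme genes in each library, in cpm on a log axis, with values under 0.02 drawn at 0.02. Colours give genotype and tissue, and each point is 1 of 3 libraries. In ovaries all 9 lie above 1 cpm in both heterozygotes and under 1 cpm in mod07570/L8, and in heads betaTry, alphaTry and Jon65Aiv are near 0 in mod07570/L8 while tobi is not.

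Besides the digestive genes and the histone copies, 198 genes fell by over 2-fold, of which 58 had a control mean of at least 10 cpm. Map205, which encodes a microtubule-associated protein and is the neighbour of mod on 3R in the reference gene order, was at 198, 198 and 198 cpm in mod07570/+, 229.5, 220 and 234 cpm in modL8/+ and 1.87, 1.42 and 1.72 cpm in mod07570/L8 (log2 fold change -6.79 ± 0.069 (SE), adjusted p = 2.57e-31). The corresponding change of mod was smaller (log2 fold change -4.79 ± 0.047 (SE), adjusted p = 1.16e-31). Both were higher in modL8/+ than in mod07570/+. Cht10, a chitinase gene, was at 67.3, 72.9 and 69.99 cpm in mod07570/+, 111, 112 and 114 cpm in modL8/+ and 3.46, 3.87 and 3.90 cpm in mod07570/L8 (log2 fold change -4.13 ± 0.081 (SE), adjusted p = 8.73e-25).

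The other fallers had varied roles. Dh44-R2, a receptor for a diuretic hormone, went from 50.3, 54.1 and 43.8 cpm in mod07570/+ to 4.59, 5.67 and 6.09 cpm in mod07570/L8, and PICK1, a membrane-binding protein, from 14.6, 15.4 and 15.8 cpm to 1.76, 1.96 and 1.06 cpm, with modL8/+ near mod07570/+ for both. The largest losses in absolute level were in CG8180, at 866, 854 and 865 cpm in mod07570/+, 638, 647 and 663 cpm in modL8/+ and 399.5, 393 and 406 cpm in mod07570/L8, then mod, NSD and Map205. dnk, the deoxyribonucleoside kinase, followed at 339.9, 345 and 346 cpm and 164, 157 and 159.7 cpm, mol (moladietz), a maturation factor of the Duox oxidase, at 196, 209 and 200 cpm and 80.9, 78.0 and 78.9 cpm, and CG44774 and CG4570 had log2 fold changes of -1.33 and -1.09. AsnS, asparagine synthetase, was low in both genotypes with modL8, at 112, 119.7 and 116 cpm in mod07570/+, 56.3, 58.3 and 60.6 cpm in modL8/+ and 52.1, 52.5 and 51.2 cpm in mod07570/L8.

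Some housekeeping groups stayed near the median of all genes. Of 34 tested proteasome genes 6 were higher, 9 lower and 19 not called (median -0.03), of 20 glycolysis genes 7 were higher and 10 lower (median -0.04), and of 32 aminoacyl-tRNA synthetases 16 were higher and 7 lower (median 0.08). Genes of endoplasmic reticulum stress had 6 higher and 7 lower of 19. Of the Turandot stress peptides and of the Stellate and Y-linked repeat genes, classic targets of piRNAs, none reached the minimum level to be tested.

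Some measures that the comparison did not use can be set beside the direction of change, with no test. In the modL8/+ ovaries the median level was 4.00 cpm for the 934 risers, 2.42 cpm for the 255 fallers and 64.6 cpm for the other 7032 genes. The 190 risers and 147 fallers that were under 1 cpm throughout 1 compared group are included. Low ovary levels, and with them low ratios of ovary to head, are thus in part built into the classes. Most risers had more transcript in the head than in the ovary: the median log2 ratio of modL8/+ ovary to mod07570/+ head, with 0.5 cpm added, was -2.27 for the risers, 0.00 for the fallers and 1.19 for the rest, and 75.1% of risers were lower in ovary than in head, against 49.4% of fallers and 21.7% of the rest. The second mod07570/+ head library holds germline transcripts (osk at 0.212, 216 and 3.35 cpm in the 3 libraries), and without it the medians were -2.28, 0.05 and 1.31. The eggshell genes lay at the other end, with a chorion sum of 5510 to 5716 cpm in modL8/+ ovaries and 3.47 to 4.61 cpm in mod07570/+ heads. The shares of genes rising over 2-fold were alike on the chromosome arms, from 10.7% on 3R to 11.8% on X, with 14.9% of 67 genes on chromosome 4. The shares falling over 2-fold ran from 1.49% on chromosome 4 to 4.29% on 2L, which holds the histone cluster.

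**Figure D5:**
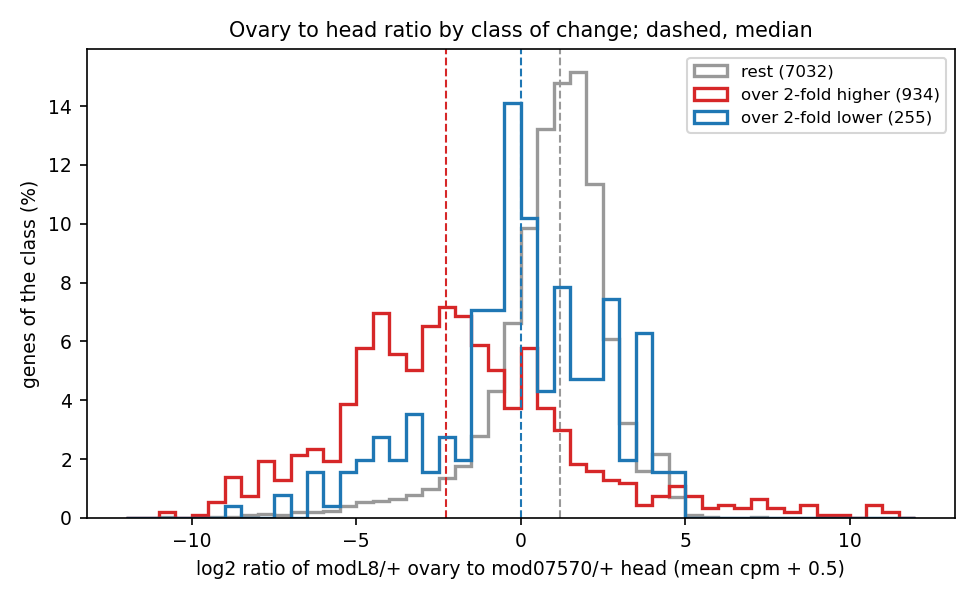
Log2 ratio of mean cpm in modL8/+ ovaries to mean cpm in mod07570/+ heads (0.5 cpm added) for genes over 2-fold higher in mod07570/L8 ovaries (red, 934), over 2-fold lower (blue, 255) and the rest (grey, 7032), as the percentage of each class per step of the axis. Dashed lines are the medians, -2.27, 0.00 and 1.19.

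Against this background the place of modL8/+ can be given for each class. For 711 of the 934 risers the modL8/+ mean lay between those of mod07570/+ and mod07570/L8, for 204 it was below mod07570/+ and for 19 above the mutant. It was nearer to mod07570/+ than to the mutant for 793 of them on the log2(cpm + 0.5) scale. For the fallers the corresponding number was 140 of 255, with 27 lower in modL8/+ than in the mutant. These are descriptions, since all 3 genotypes enter each count and the modL8 chromosome is shared by modL8/+ and mod07570/L8.

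The same genotypes were also sequenced from heads, in 3 libraries each that the ovary comparison does not use, where 3.25% of host genes tested were called. The common coefficient of variation was 0.20 in heads and 0.024 in ovaries, so the shares called do not compare the size of change between tissues. mod was at 62.6, 122 and 58.7 cpm in mod07570/+ heads and 18.2, 20.0 and 18.5 cpm in mod07570/L8 heads (log2 fold change -2.03, adjusted p = 0.00735), a smaller fall than in ovaries. The ranges of the genotypes did not overlap. Map205 was at 42.9, 81.0 and 60.8 cpm and 0.583, 0.767 and 0.660 cpm (-6.42), and its fall was not found to differ between the tissues (difference of log2 fold changes -0.34, adjusted p = 0.481 in edgeR's quasi-likelihood test). The trypsins were lost in heads too: betaTry was at 52.5, 74.04 and 42.2 cpm in mod07570/+ heads and at 0 in mod07570/L8 heads, and alphaTry had a log2 fold change of -9.70 and Jon65Aiv of -10.08. Amy-p fell less in heads, from 381, 769 and 691 cpm to 15.9, 25.2 and 27.6 cpm (-4.66). tobi was at 346, 169 and 149 cpm in mod07570/+ heads and 465, 298 and 245 cpm in mod07570/L8 heads and was not called (0.59, adjusted p = 0.526). The second mod07570/+ head library, which holds ovary transcripts, also had the highest mod value, and without it the head log2 fold change of mod was -1.71.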

How the data were processed

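Poly(A) RNA libraries of mod07570/L8, mod07570/+ and modL8/+ ovaries, 3 each, and of mod07570/L8 and mod07570/+ heads, 3 each, were analysed, with groups taken from the sample labels. Reads had been aligned by the authors directly to gene transcripts of RefSeq and to consensus sequences of transposons with Bowtie 2, and eXpress had assigned them to targets. The versions are not given in the sources used here. The deposited estimated counts divide a fragment that fits several targets among them, the deposited effective counts also correct for fragment bias, and the deposited unique counts hold fragments that fit 1 target only. Of 34437 transcripts, 34035 matched a symbol in the RefSeq gene table and 402 were kept by their own identifier. The table is of another assembly than the dm3 build of the notes, so it served for names and gene order only.

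Estimated counts were summed per gene and rounded, and features, transposons included, were tested where 3 or more of the 6 libraries reached 1 cpm. The test was edgeR's quasi-likelihood F test (4.0.16, R 4.3.3) after TMM scaling. p-values were adjusted by Benjamini and Hochberg over all features, and those under 0.05 were called. SEs belong to the log2 fold changes of that fit. Heads and the interaction of tissue and genotype were fitted likewise. Totals of 12988959 to 18353131 estimated counts per ovary library set the counting precision. For genes with 0 or up to 3 counts in a group, folds are bounds against 3 counts per library or ratios with exact Poisson intervals. In simulated counts for this comparison with 8158 features, 200 of 200 changed genes were recovered over 2-fold. Of the unchanged genes 11 were called, 0 over 2-fold. Recovery of differences under 2-fold, the size of most called genes here, was not tested. In the simulated counts only 200 of the 8158 features were set to differ, whereas 77.5% of the host genes tested were called here. TMM scaling and false calls were not tested for a setting in which so many genes differ.

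The members and the gene lists were chosen with earlier results of these data known, and 4 lists were added after their values were seen. The text names mod, the 25 genes of largest rise and fall by fold with at least 10 cpm, the 10 by cpm, and up to 6 members per list. Other genes were named after their values were seen, and genes with no annotated role among the 25 are in part left unnamed. The alternatives replaced estimated by effective or by unique counts, TMM by total counts or by factors from host genes alone, and edgeR by DESeq2 1.42.0, or used no filter, replicate number as a block, all ovary libraries in one fit, transcripts as listed, and each library left out in turn. Leaving out the second mod07570/+ head library, which held germline transcripts, was added after seeing the data. Promoter sequences were not used here. Tables were handled with Python 3.11.15, pandas 2.3.3, numpy 2.4.6 and scipy 1.17.1, and figures drawn with matplotlib 3.10.9.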

Additional observations from a re-analysis of the deposited data

Results flagged for a closer look

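Genes whose head values are given were tested for a difference between tissues, with the interaction of tissue and genotype in an edgeR quasi-likelihood fit of the 12 mod07570/L8 and mod07570/+ libraries of ovary and head. The difference of log2 fold changes, ovary minus head, passed the test for 3 of them. It was -2.74 for mod (adjusted p = 5.47e-05), so the fall was larger in ovaries. It was -5.16 for Amy-p, the amylase gene (adjusted p = 1.45e-04), which fell in both tissues. It was -6.68 for tobi, the glucosidase gene (adjusted p = 7e-05), which fell in ovaries and was not called in heads. The second mod07570/+ head library holds germline transcripts, and without it the differences were -3.09, -5.32 and -6.48.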

How the results depend on the processing

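The counts of called host genes were 3131 higher and 3237 lower in the fit described above, with 934 and 255 over 2-fold. They moved by more than 1.5 times in these cases: with unique reads 1940 genes were higher and 2034 lower. The counts over 2-fold with unique reads stayed close, at 843 and 273. Without the filter on low counts 1406 were higher and 448 lower by over 2-fold, and with transcripts tested as listed, which makes more features than genes, 1408 and 508. Leaving out each library in turn gave 2972 to 3042 higher and 3083 to 3182 lower, and 926 to 958 and 251 to 276 over 2-fold. DESeq2, all 9 ovary libraries in one fit, effective counts, scaling by total counts and TMM without transposons stayed within 1.5 times. Scaling by total counts still gave a less even split, with 2590 genes higher and 3927 lower.

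Replicate numbers are shared between the genotypes in the labels but did not pair the libraries, as the correlations of deviations of same-numbered libraries were -0.063, 0.014 and -0.063. With replicate number as a block, 3072 genes were higher and 3178 lower, and 938 and 257 by over 2-fold.

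Of the genes with values in the text, 185 of 200 kept call and direction under every alternative that tested them, though unique reads could test only 153 of them and none of the clustered histone copies. vas reversed with unique reads (-0.14). The medians of small size also reversed: Hsf, Hsp90 and co-chaperones (-0.056 with unique reads, -0.062 with total-count scaling), DNA damage and apoptosis (-0.046 with total-count scaling) and germline markers (-0.057 and -0.039). osk became a call under total-count scaling (-0.11). The cause of these shifts was not tested. At this depth a gene at 0 in 3 libraries is limited to a floor of 3 counts per library.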

Other observations

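Some gene groups outside the main lines of change hold further values. Of 16 tested genes of sex determination and dosage compensation, 5 were higher, 3 of them by over 2-fold, and 9 lower. fru (fruitless) was at 4.70, 3.35 and 3.20 cpm in mod07570/+ and 13.7, 15.0 and 15.2 cpm in mod07570/L8 (log2 fold change 2.08 ± 0.14, SE), whereas msl-3, of the dosage compensation complex, had -0.68 ± 0.049. Of 41 tested translation factors 23 were higher and 7 lower, none by over 2-fold. Of 18 tested genes of the tricarboxylic acid cycle 14 were higher and 1 lower. Of 27 genes of autophagy and lysosomes 9 were higher and 15 lower. Of 24 glutathione S-transferases 7 were higher and 9 lower, and of 11 UDP-glycosyltransferases 6 and 3. Among the 934 genes over 2-fold higher, 359 carry only a CG, CR, lncRNA or asRNA name, and so do 112 of the 255 lower.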
